A study of Mus musculus with 33 samples.

Results

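Carcinomas of the MMTV-PyMT mouse were compared with age-matched tumor-free mammary glands, both at week 10 and both with an intact Pthrp gene (PTHrP WT). The comparison takes every library that the sample labels give as WT tumor or WT gland of week 10, which is 5 of the 33 libraries of the series, 3 of tumors and 2 of glands. Each library came from 1 mouse of an FVB background. All 5 mice were Pthrp wt/wt and carried Cre under the MMTV promoter and the mTmG reporter, in which Cre switches a cell from red (mTd) to green (GFP) fluorescence. Only the tumor mice carried the polyomavirus middle T antigen (PyMT), an oncogene that the MMTV promoter expresses in mammary epithelium. Tissue was digested with collagenase and dispase, kept in culture medium with serum, and sorted for GFP+ cells, so that the libraries hold cultured epithelium and not the whole tissue. Ribosomal RNA was depleted and stranded total RNA libraries were sequenced.

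The ducts of the mammary gland are bilayered. Basal (myoepithelial) cells contract to move milk and lay down the basement membrane. Luminal cells inside them are either hormone-sensing, with receptors for estrogen and progesterone, or belong to the secretory lineage, whose progenitors depend on the transcription factor Elf5 and whose mature cells make milk. PyMT activates Src, PI3K and Ras signaling in these cells, and its tumors pass from hyperplasia to carcinoma, with week 10 as the last WT stage that had replicates. Levels below are CPM, reads of a gene relative to the library's total, in tumors 1, 2 and 3 and in glands 1 and 2, numbered as in the labels. Differences are log2 fold changes, tumor minus gland, ± SE, from edgeR's quasi-likelihood test. A gene was called differentially expressed (DEG) where it changed by more than 1.5-fold with an adjusted p under 0.1 (Benjamini-Hochberg, over all 36527 genes tested), and "rose", "fell", "higher" and "lower" are written of tumors against glands for genes that passed both. In bulk RNA of this kind, fewer cells of a type and less RNA per cell cannot be told apart.

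Reads counted to genes ranged from 40849018 to 48598007 in tumors and were 130981596 in gland 1 and 35228250 in gland 2, so that 3 reads corresponded to between 0.0231 and 0.0762 CPM. The polyomavirus row of the table held 2500, 628 and 528 reads in the 3 tumors and 0 in both glands, and the GFP row lay between 380 and 512 CPM in all 5 libraries. Markers of most other cell types were low. All 10 lymphocyte markers, 8 of 12 macrophage markers and 8 of 10 adipocyte markers stayed under 1 CPM in every library, and none of these 3 lists had a DEG. Summed over their lists, macrophage markers lay between 9.53 and 11.5 CPM in tumors and between 8.42 and 13.4 CPM in glands. Fibroblast markers summed to between 37.8 and 148 CPM in tumors and to 38.6 and 68.3 CPM in glands, with 1 of 12 lower (Thy1, lost without gland 1, adjusted p = 0.193). Endothelial markers summed to between 5.5 and 8.74 CPM in tumors and to 27.2 and 59.8 CPM in glands, most of it Flt1, the only one of 10 that fell, while Pecam1 and Cdh5 were at or under 1.24 CPM in all 5 libraries. Schwann cell markers summed to 176, 214 and 161 CPM in tumors and to 222 and 147 CPM in glands, most of it Mbp, Ncam1 and Pmp22, while S100b was at or under 0.499 CPM. Schwann cell and skeletal muscle lists had 1 DEG each, Cdh19 (higher) and Actn3 (lower, lost without tumor 2, tumor 3 or either gland). Tumor 2 stood apart in ribosomal RNA, at 0.447% of its reads against at most 0.036% in the other 4, and in mitochondrial RNA, at 3.46% against at most 1.86%.

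In the carcinomas 2240 genes were DEGs, 6.13% of the genes tested. Of these, 900 were higher (2.46% of the genes tested) and 1340 were lower (3.67%). More genes passed a given fold on the lower side: 727 genes fell and 314 rose by more than 4-fold, and 197 fell and 87 rose by more than 16-fold. In 2189 of the 2240 DEGs the 3 tumors and the 2 glands did not overlap, as was the case for 22.8% of all genes tested. The median log2 fold change over all genes was 0. Protein-coding genes made up 1949 of the DEGs and long intergenic noncoding RNAs 73. Leaving gland 1 out gave 1215 DEGs, and fitting only these 5 libraries gave 995. In that first fit, and wherever a gland is left out below, the gland that remains is taken to vary as the other groups do.

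**Figure D1:**
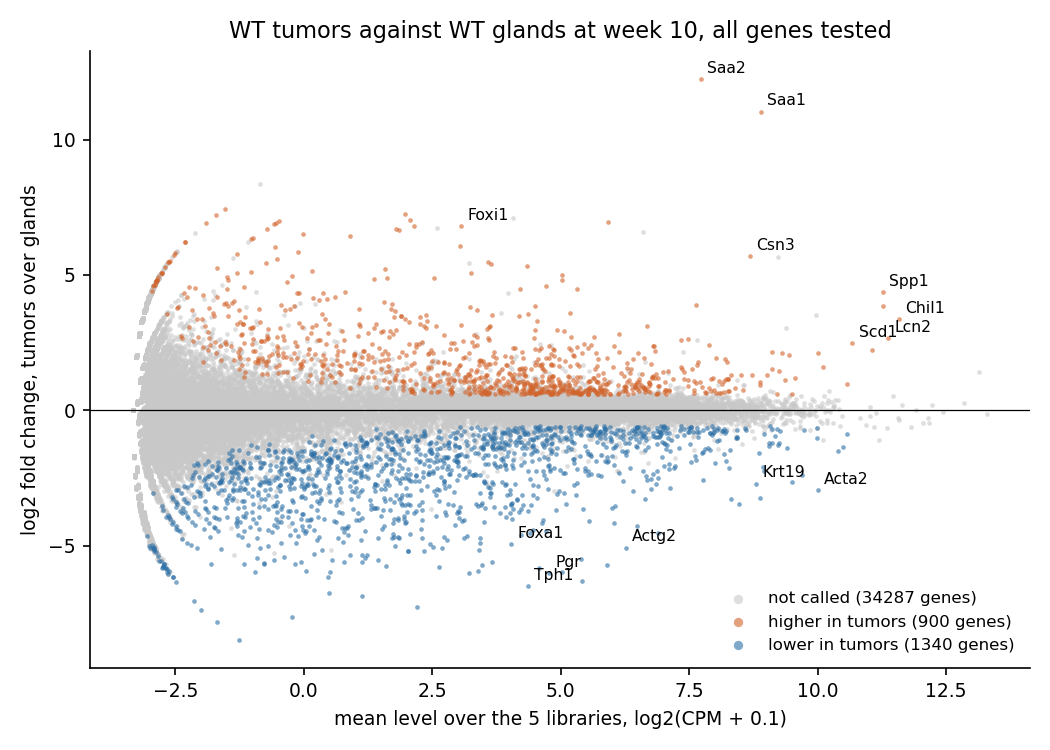
Each point is 1 of the genes tested, with the mean level over the 5 libraries on the x axis (log2 of CPM + 0.1) and the log2 fold change of WT tumors against WT glands of week 10 on the y axis. DEGs are colored by direction; 900 lie above 0 and 1340 below, and the labeled genes reach from about 12 (Saa2) to below -6 (Tph1, Pgr).

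Of 12 genes of the hormone-sensing luminal lineage, 8 fell and none rose, with a median log2 fold change of -2.87. Pgr, the progesterone receptor (chromosome 9, 8899833 to 8968611, GRCm38), was at 1.5, 0.402 and 1.14 CPM in the tumors and at 44.9 and 88.9 CPM in the glands. Every tumor was at least an order of magnitude below either gland, and the log2 fold change was -6.03 ± 0.88 (adjusted p = 0.000105). Tbx3, a T-box repressor of the mammary lineage, was at 1.96, 0.685 and 1.16 CPM in tumors against 54.2 and 105 CPM in glands (-5.96 ± 0.69, adjusted p = 9.43e-06). Foxa1, the pioneer factor that opens chromatin for the estrogen receptor, was at 1.09, 1.13 and 1.55 CPM against 27.1 and 50.4 CPM (-4.94 ± 0.54, adjusted p = 4.32e-06). The 3 tumors lay close to each other for both genes, and gland 2 was the higher gland throughout.

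Esr1, the estrogen receptor itself, fell less. Its levels were 8.66, 4.82 and 4.56 CPM in tumors and 14 and 32.6 CPM in glands, and the log2 fold change was -1.95 ± 0.54 (adjusted p = 0.0318). Wnt4, Greb1 and Areg, which estrogen or progesterone is known to induce, fell as well, by 3.21 ± 0.39, 3.70 ± 0.98 and 2.54 ± 0.75 on the log2 scale. Cited1, a coactivator of the estrogen receptor, fell by 3.93 ± 0.86. Areg, a growth factor of the EGF family, was uneven among tumors, at 2.29, 4.96 and 19.4 CPM. The prolactin receptor Prlr (-1.33 ± 0.60, adjusted p = 0.274) did not pass, nor did Tnfsf11, Ly6a and Prom1. Gland 2 held most of this list's level. Without it, Esr1 (-1.21, adjusted p = 0.414), Cited1 (-2.81, 0.132), Areg (-1.60, 0.44) and Greb1 (-1.71, 0.491) no longer passed and 4 of 12 genes were called (median -1.95). Esr1 and Greb1 were also lost without tumor 3 (adjusted p = 0.114 and 0.105), and Areg without tumor 1 or tumor 2 (0.202 and 0.153). Pgr, Foxa1, Tbx3 and Wnt4 stayed DEGs whichever library was left out.

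Several of the genes that fell most lie next to these receptors and factors. Tbx3os2, a noncoding transcript on the opposite strand whose 3′ end lies 370 bases from Tbx3 on chromosome 5, was at 0.0192, 0 and 0.0814 CPM in tumors and at 1.05 and 3.48 CPM in glands. Gm16485, an annotated gene whose type is still to be established, 3179 bases from Pgr on chromosome 9, was at 0.0611 to 0.211 CPM in tumors and at 4.72 and 9.62 CPM in glands. Ttc6, which lies 17196 bases from Foxa1 on chromosome 12, was at 0.213 to 0.499 CPM against 7.99 and 15.9 CPM (log2 fold change -5.2 ± 0.64, adjusted p = 1.83e-05). Of each pair, the tumors were below both glands for both genes. Genes of a pair do not overlap as annotated. Pgr and Gm16485 lie on the same strand, so counting by strand would not separate them. For Tbx3 and Tbx3os2 it could, but the strand setting of the counting was not given in the sources used here. Whether reads running past an annotated end were counted to the neighbor was not tested.

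Few of the general luminal genes were DEGs. Summed, they lay at 6590, 12300 and 14200 CPM in tumors and at 15300 and 15600 CPM in glands, lowest in tumor 1. Of 12, Krt19 and Cldn4 fell and none rose (median -0.27). Krt8 was at 1379, 3431 and 4135 CPM in tumors and at 4690 and 4405 CPM in glands, and did not pass (-0.61 ± 0.29, adjusted p = 0.309). Epcam, an epithelial adhesion molecule, was at 716, 840 and 890 CPM against 855 and 989 CPM (-0.18 ± 0.18, adjusted p = 0.668). Krt19, an acidic keratin of simple epithelium, was at 87, 166 and 161 CPM against 716 and 1097 CPM, the groups far apart (-2.71 ± 0.41, adjusted p = 0.000158). Epcam and Krt8 were thus well expressed in both groups, with Krt8 lowest in tumor 1. Cldn4 (-0.86 ± 0.22, adjusted p = 0.0208) lost its call without tumor 1 (-0.63, adjusted p = 0.123) or without gland 2 (-0.61, 0.32).

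**Figure D2:**
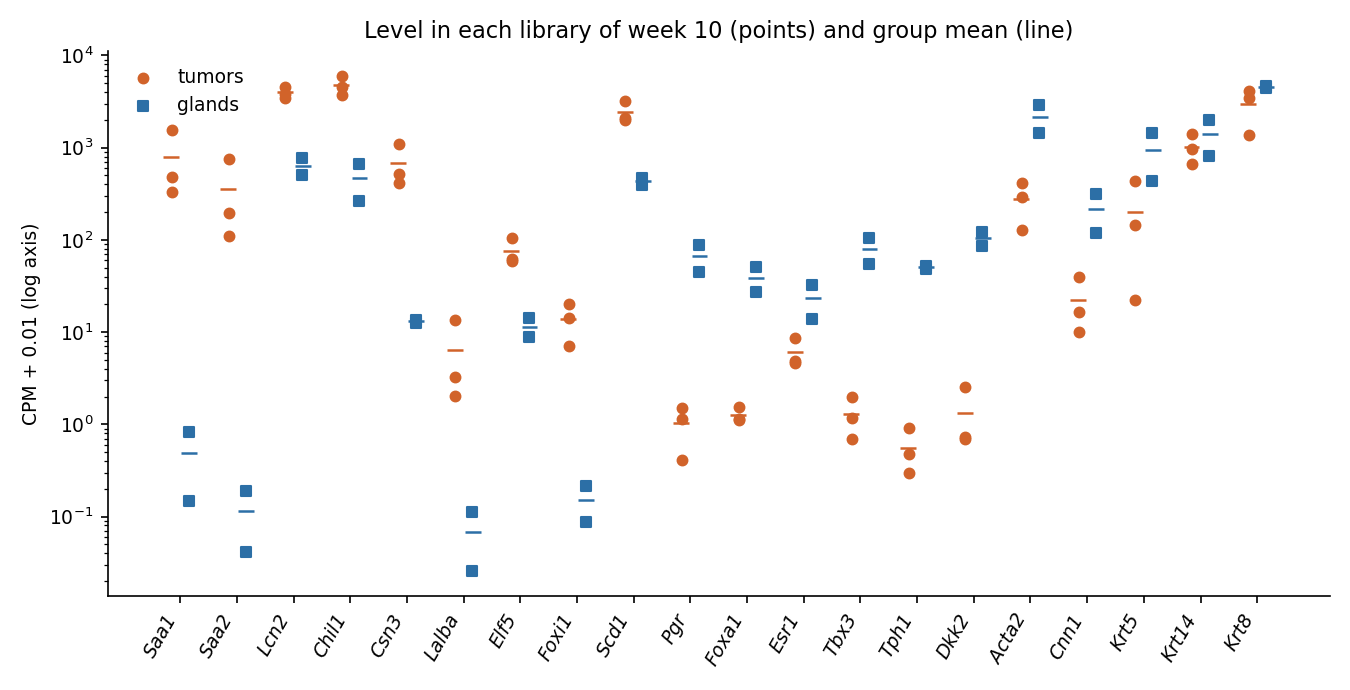
Level of 20 genes (y axis, CPM + 0.01 on a log axis) in each of the 5 libraries, 1 point per library, tumors as circles and glands as squares, with a line at each group mean. The tumors lie below both glands for Pgr, Foxa1 and Tbx3, and above both for Elf5, Csn3, Saa1 and Lcn2.

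Basal cell genes were described by their contractile proteins, their markers and their transcription factors. The contractile list held contractile proteins of myoepithelial cells, which are those of smooth muscle, and regulators such as Srf and Myocd. It had 14 of 25 members lower and none higher, with a median of -2.33 and all 25 below 0. The study had already named its members Trpc6, Myl9, Prkg1 and Kcnmb1 as falling in tumors of this series. Their calls are therefore not independent of the choice of the list. Acta2, smooth muscle actin, was at 410, 293 and 127 CPM in tumors and at 2872 and 1429 CPM in glands (-2.96 ± 0.69, adjusted p = 0.00954). Myh11, smooth muscle myosin, was at 115, 71.6 and 23.6 CPM against 1112 and 454 CPM (-3.48 ± 0.82, adjusted p = 0.0105). Actg2, the enteric actin, was at 8.2, 2.53 and 5.58 CPM against 295 and 72.2 CPM (-5.07 ± 0.92, adjusted p = 0.000994). Tumor 3 was the lowest for Acta2 and Myh11, and gland 1 was the higher gland for all 3. The calponin Cnn1 (-3.28 ± 0.79), the actin-binding Tagln (-3.23 ± 0.75), the potassium channel subunit Kcnmb1 (-4.57 ± 0.88) and the cation channel Trpc6 (-5.93 ± 0.89) also fell.

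Of 12 basal markers 6 fell, all of them contractile genes apart from Krt5, and all 12 had log2 fold changes below 0 (median -2.06). Without tumor 1, 8 of the 12 were called. This keratin was at 432, 145 and 22.4 CPM in tumors and at 1448 and 440 CPM in glands, so that tumor 1 almost reached gland 2 (-2.24 ± 0.68, adjusted p = 0.058). Its partner Krt14 was at 1402, 965 and 668 CPM against 1978 and 804 CPM, with overlapping groups (-0.46 ± 0.36, adjusted p = 0.581). Trp63, the transcription factor that specifies basal cells, overlapped as well, at 115, 72.5 and 29.7 CPM against 112 and 58.9 CPM (-0.24 ± 0.52, adjusted p = 0.895). Among 15 transcription factors of basal cells Sox6 and Nfib rose, by 1.76 ± 0.46 and 1.05 ± 0.25, and Egr2 fell by 1.70 ± 0.56. Egr2 lost its call in each of the 5 fits that left out 1 library (adjusted p between 0.136 and 0.378). Sox6 was lost without tumor 1 or either gland (0.106 to 0.199), and Nfib without gland 1 (0.102). Of these 15, 1 was higher and 3 were lower without tumor 1, and 2 and 3 with no filter on low counts or with a block for mouse number. Krt5 did not pass without tumor 2 (adjusted p = 0.157), tumor 3 (0.121) or gland 1 (-1.14, 0.606). The contractile calls rested on gland 1: without it 3 of 25 contractile genes (Actg2, Kcnmb1 and Trpc6) and 0 of 12 basal markers passed, with medians of -1.55 and -1.35. Acta2 then had a log2 fold change of -2.37 (adjusted p = 0.133) and Myh11 one of -2.69 (0.149). The basal markers summed to between 1860 and 3460 CPM in tumors and to 11700 CPM in gland 1 and 5380 CPM in gland 2.

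The promoters of the contractile genes were searched for the CArG box, the element that serum response factor (Srf) binds in smooth muscle genes, on both strands from 250 bases before to 50 bases after the RefSeq start (GRCm38.p6). Of the 20 members with an entry, 3 held a box, Myl9, Trpc6 and Srf itself, against 1.63% of 32851 promoters of the same length. The windows of the 2 that fell follow, 5′ to 3′ on the plus strand, with the box in capitals.
Myl9 (chr2:156775273-156775342, +): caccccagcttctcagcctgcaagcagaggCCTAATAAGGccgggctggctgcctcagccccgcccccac
Trpc6 (chr9:8543990-8544059, +): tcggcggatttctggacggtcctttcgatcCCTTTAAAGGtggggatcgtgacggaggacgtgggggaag

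Myl9, a regulatory light chain of smooth muscle myosin, was at 97.8, 72.2 and 26 CPM in tumors and at 398 and 151 CPM in glands (-2.07 ± 0.68, adjusted p = 0.0831), and it no longer passed without tumor 2, tumor 3 or gland 1 (-1.21, adjusted p = 0.584). Trpc6 was at 0.538, 0.236 and 0.448 CPM against 12.4 and 38.2 CPM, a fold of 61.1, and passed without any 1 library. Its highest gland was gland 2, unlike the rest of the list, and it lies 219091 bases from Pgr. Srf did not pass, at 77.5, 99.6 and 97.3 CPM against 121 and 100 CPM (-0.27 ± 0.19, adjusted p = 0.527). Its coactivator Myocd was at or under 0.131 CPM in all 5 libraries. A match to these letters is a description of the window, not of a bound site.

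The basement membrane, the sheet of collagen IV and laminin under the basal cells, had 13 of 21 genes lower and 2 higher (median -1.22). Col4a1, a chain of the common collagen IV network, was at 88.2, 64.7 and 60 CPM in tumors and at 987 and 384 CPM in glands (-3.27 ± 0.48, adjusted p = 0.000116). Its head-to-head neighbor Col4a2 fell by 2.88 ± 0.39 on the log2 scale. Col4a5 and Col4a6, chains of a different collagen IV network, instead rose by 1.28 ± 0.36 and 1.37 ± 0.43, and tumor 1 was highest for both, at 230 and 158 CPM. The 2 pairs therefore moved in opposite directions, although the higher calls were lost without tumor 1 (0.79 and 0.81) or without gland 2 (1.02 and 1.26), and that of Col4a6 also without gland 1 (1.5). Lama1 (-2.93 ± 0.50), Lama3 (-2.11 ± 0.40) and Lama5 (-1.33 ± 0.19), laminin alpha chains, fell and passed without any 1 library. Integrins that anchor cells to laminin did not pass, among them Itga6 (-0.37 ± 0.19, adjusted p = 0.347). Without gland 1, 5 of the 13 lower genes were called, and 7 were called when only these 5 libraries were fitted.

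Of 20 fibrillar matrix genes, which fibroblasts are known for, 4 were lower and none higher (median -0.79). Postn, a matricellular protein, was at 640, 200 and 86.3 CPM in tumors and at 2067 and 1149 CPM in glands (-2.38 ± 0.80, adjusted p = 0.0974). Col5a2, Sparc and Mmp14 also fell, by 2.74 ± 0.78, 1.87 ± 0.62 and 1.03 ± 0.30. None of the 4 passed without tumor 3 or without gland 1, and Postn was lost in each fit without 1 library other than that without tumor 1. Without tumor 2 there were 2 calls. The collagen I and III genes had log2 fold changes between 0.44 and 1.19 and did not pass.

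Of 10 genes of the luminal progenitor, 5 were higher, 1 was lower and 4 did not pass (median 1.09). Elf5, the Ets factor that drives the secretory lineage, was at 105, 59.2 and 62.6 CPM in tumors and at 14.2 and 8.78 CPM in glands (2.71 ± 0.47, adjusted p = 0.0006). Its relative Ehf, which lies near it on chromosome 2, was at 297, 200 and 180 CPM against 110 and 97.9 CPM (1.12 ± 0.28, adjusted p = 0.0155). BC016548, a noncoding gene between them, rose as well, from 0.662 and 0.66 CPM in glands to 6.49, 3.5 and 5.45 CPM. All 3 genes had every tumor above both glands. The lipopolysaccharide co-receptor Cd14 (1.54 ± 0.31), the lipopolysaccharide-binding protein Lbp (3.10 ± 0.66) and the Notch target Hey1 (2.96 ± 0.81) rose too. Kit, the receptor often used to sort these progenitors, was at 140, 49.2 and 47.9 CPM against 31.4 and 44.1 CPM and did not pass (1.07 ± 0.52, adjusted p = 0.32). Aldh1a3, an aldehyde dehydrogenase of the same cells, fell, at 19.4, 59.9 and 30 CPM against 189 and 203 CPM (-2.43 ± 0.55, adjusted p = 0.00713). Without gland 1, Lbp (2.69, adjusted p = 0.117) and Hey1 (2.43, 0.301) did not pass and 3 of 10 were higher. Hey1 was also lost without tumor 1 (1.77, 0.242), and Ehf without gland 2 (1.03, 0.158).

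Of 15 milk genes 7 were higher, none was lower and 8 did not pass, 5 of the 15 being under 1 CPM in all 5 libraries (median 2.11). Csn3, kappa-casein, was at 1097, 512 and 419 CPM in tumors and at 13.7 and 12.6 CPM in glands (5.69 ± 0.60, adjusted p = 2.69e-06). Lalba, the alpha-lactalbumin of lactose synthesis, was at 13.7, 2.03 and 3.26 CPM against 0.0154 and 0.102 CPM (7.24 ± 1.57, adjusted p = 0.00577). Gland 1 lay under its level of 3 reads (0.0231 CPM), so the size of this fold is uncertain. The alpha casein Csn1s1 was uneven, at 33.9, 3.8 and 19.3 CPM against 3.14 and 1.17 CPM (3.10 ± 0.97, adjusted p = 0.0656). Proteins of the milk fat globule rose by less: Mfge8 by 2.04 ± 0.43, Xdh by 1.43 ± 0.37 and Btn1a1 by 1.24 ± 0.26. Trf, transferrin, rose by 2.11 ± 0.58. Csn2, beta-casein, did not pass (3.96 ± 1.72, adjusted p = 0.25), and Wap, the whey acidic protein, was at 1.65, 0.213 and 0.387 CPM with no read in either gland. Per kilobase of gene model, Csn3 averaged 163 CPM in tumors, Csn1s1 3.04 and Csn2 0.195, so that kappa-casein stood well above the other caseins. Without gland 1 only Csn3 and Mfge8 passed, and Lalba had a log2 fold change of 5.93 (adjusted p = 0.157). Csn1s1 and Trf were also lost without tumor 1 (adjusted p = 0.242 and 0.188) or gland 2 (0.373 and 0.148). Tumor 1 had the highest level of Csn3, Lalba, Csn1s1, Mfge8 and Trf.

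**Figure D3:**
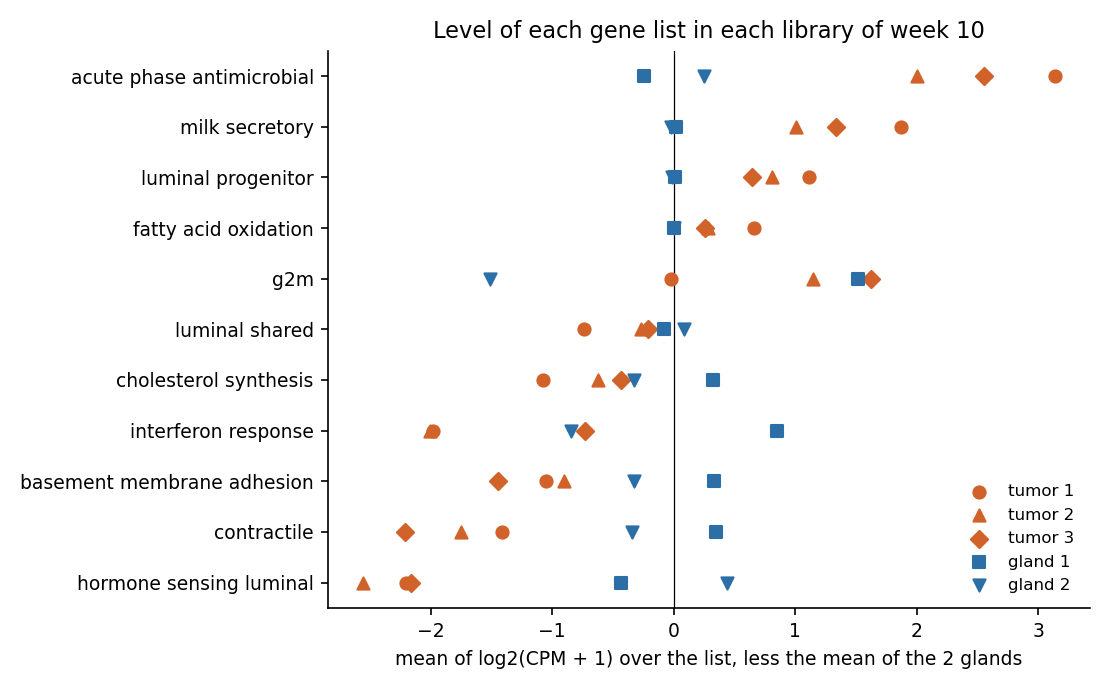
Mean log2(CPM + 1) of each of 11 gene lists in each of the 5 libraries, relative to the mean of the 2 glands (x axis, log2 units), 1 row per list and 1 point per library. Contractile, basement membrane and hormone-sensing lists lie below 0 in all 3 tumors and milk and acute-phase lists above, while on the G2/M list gland 1 lies at 1.51 and gland 2 at -1.51.

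Acute-phase and antimicrobial proteins, which epithelia secrete in inflammation, had a median log2 fold change of 2.40: 12 of 18 were higher and none lower. The serum amyloid A genes led it. Saa1 was at 1569, 329 and 478 CPM in tumors and at 0.139 and 0.812 CPM in glands (11.03 ± 1.31, adjusted p = 1.27e-05). Saa2 was at 753, 110 and 194 CPM against 0.0308 and 0.178 CPM (12.24 ± 1.48, adjusted p = 1.73e-05). The glands held 4 and 7 reads of Saa2, so the size of its fold is uncertain. Saa3 was at 149, 46.5 and 107 CPM against 0.146 and 1.8 CPM (6.94 ± 1.78, adjusted p = 0.0197), a call that was lost without gland 1 (5.80, adjusted p = 0.23). Tumor 1 was the highest and tumor 2 the lowest for all 3 genes, and gland 2 lay above gland 1. Saa1 and Saa2 are near-identical copies, so how reads split between them is uncertain.

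The abundant members moved by less and more evenly. Lcn2, lipocalin 2, which withholds iron from bacteria, was at 4573, 3487 and 3861 CPM in tumors and at 502 and 763 CPM in glands (2.65 ± 0.36, adjusted p = 4.44e-05). Chil1, a chitinase-like protein, was at 6050, 4586 and 3699 CPM against 264 and 668 CPM (3.36 ± 0.62, adjusted p = 0.00135). Both were among the most highly counted genes that rose. S100a8, a calprotectin subunit, was at 125, 10.2 and 57.7 CPM against 0.947 and 5.05 CPM (4.49 ± 0.87, adjusted p = 0.00194). Its partner S100a9, which neutrophils make together with S100a8, was at or under 0.509 CPM in all 5 libraries. Of the complement genes, Cfb rose by 3.30 ± 0.62 and C3 by 1.29 ± 0.33, and the antibody transporter Pigr rose by 5.20 ± 1.26. Wfdc18, a secreted antiprotease of the mammary gland, rose by 2.16 ± 0.48. Slpi (-0.04) and Hp (0.62) did not pass. Outside this list, the liver-type acute-phase genes Orm1 (6.05 ± 0.82), Lrg1 (4.58 ± 1.05) and Cp (2.21 ± 0.32), orosomucoid, a leucine-rich glycoprotein and ceruloplasmin, were also among the largest or most abundant rises. Of the list, 12 genes passed without any 1 of the tumors, 8 without gland 1 (Saa3, Lbp, C3 and Pigr were lost) and 11 without gland 2 (Wfdc18 was lost, adjusted p = 0.134). Lrg1 was lost without gland 1 (3.80, adjusted p = 0.17).

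**Figure D4:**
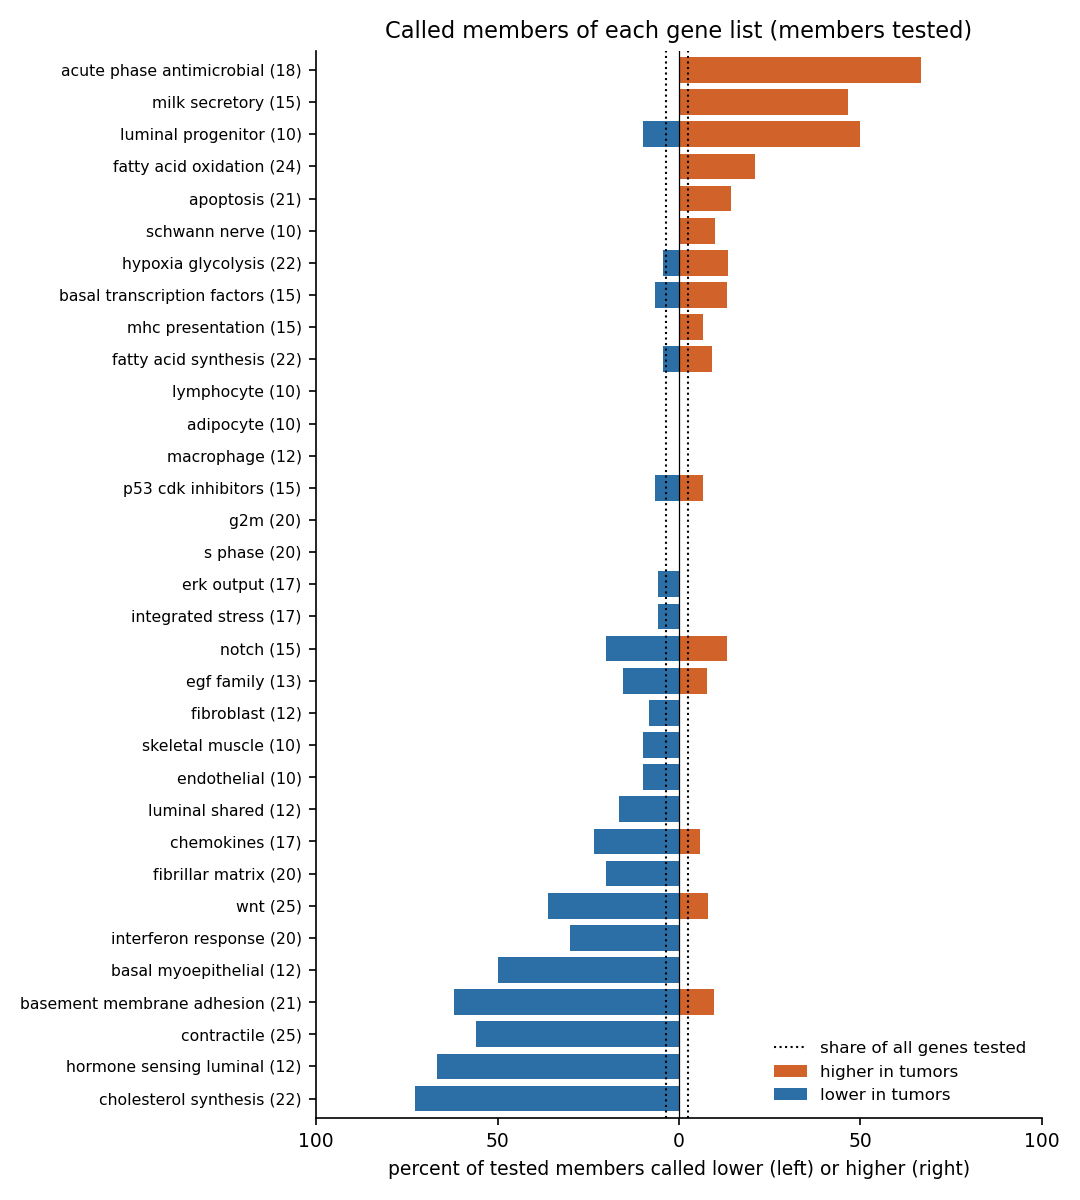
Percent of the tested members of each gene list that were DEGs at week 10, higher to 1 side and lower to the other, with dotted lines at the shares among all genes tested (2.46% higher, 3.67% lower). The contractile, hormone-sensing, basement membrane and cholesterol lists reach furthest on the lower side and the acute-phase list on the higher side.

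In fatty acid metabolism the desaturase Scd1 stood out. Scd1, which makes monounsaturated fatty acids (chromosome 19, 44394455 to 44407879), was at 3203, 2097 and 2005 CPM in tumors and at 470 and 398 CPM in glands (2.49 ± 0.38, adjusted p = 0.00018), and passed without any 1 library. Thrsp, a lipogenic nuclear protein of the lactating gland, rose from 0.531 and 0.254 CPM to 10.8, 1.32 and 3.62 CPM (3.66 ± 0.81, adjusted p = 0.00634), a call lost without gland 2 (3.31, adjusted p = 0.106). Dgat2, which makes the last step to triglyceride, fell by 2.14 ± 0.35. The other 19 of 22 synthesis genes did not pass, and the list median was -0.02. Fasn, fatty acid synthase, was at 546, 602 and 593 CPM against 980 and 639 CPM (-0.48 ± 0.17, adjusted p = 0.12), and Acaca, the committing carboxylase, at 228, 236 and 202 CPM against 239 and 139 CPM (0.23 ± 0.19, adjusted p = 0.609). Without gland 2, 4 synthesis genes were lower.

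Fatty acid oxidation had 5 of 24 genes higher and none lower, with a median of 0.48. Cpt1a, the mitochondrial entry step, was at 180, 92.6 and 80.9 CPM against 44.1 and 61.1 CPM (1.16 ± 0.30, adjusted p = 0.021). Etfa, which passes the electrons on, was at 55.7, 58.8 and 56.5 CPM against 31.7 and 32.4 CPM, nearly without spread (0.83 ± 0.17, adjusted p = 0.00325). Acad9, Eci2 and Hadh rose by 0.95 ± 0.13, 0.86 ± 0.16 and 0.66 ± 0.16. The count was 3 without tumor 1 or without gland 1, where Cpt1a and Hadh were lost, 9 without tumor 2 and 8 with no filter on low counts.

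Cholesterol synthesis went the other way. Of 22 genes of the pathway and its regulation 16 fell and none rose, with a median of -0.81. Sqle, squalene epoxidase, was at 92.7, 122 and 140 CPM in tumors and at 292 and 264 CPM in glands (-1.23 ± 0.17, adjusted p = 4.49e-05), and was the one gene of the list to pass without any 1 library. Srebf2, the transcription factor of the pathway, fell by 0.60 ± 0.19, close to the fold limit, and passed only without tumor 2 among the fits that left out 1 library. Insig1 (-0.40 ± 0.25, adjusted p = 0.47) did not pass. The calls were sensitive to single libraries and to the fit: 5 remained without tumor 1, 1 without gland 1 and 2 when only these 5 libraries were fitted, while the median stayed below 0, between -0.41 without gland 1 and -1.10 without gland 2.

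A sterol element (TCACNCCAC, either strand), to which the Srebf proteins bind, was found in 1 of the 15 promoters of this list with an entry and in 1.24% of all promoters. This search was chosen after the values were seen. The promoter is that of Hmgcs1, the synthase that opens the pathway, which was at 122, 199 and 225 CPM in tumors and at 446 and 232 CPM in glands (-0.90 ± 0.26, adjusted p = 0.0416), a call lost without tumor 1 or gland 1 (-0.35, adjusted p = 0.683). Its element is shown in capitals.
Hmgcs1 (chr13:119690184-119690252, +): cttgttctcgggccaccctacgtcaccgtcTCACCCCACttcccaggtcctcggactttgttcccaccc

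Of 22 genes of glycolysis and hypoxia 3 rose and 1 fell (median 0.19). Car9, a carbonic anhydrase that hypoxia induces, was at 24.9, 13.7 and 15.4 CPM against 2.92 and 2.77 CPM (2.66 ± 0.50, adjusted p = 0.00161). Pfkl, the liver-type phosphofructokinase, and Adm, adrenomedullin, rose by 1.15 ± 0.23 and 1.32 ± 0.28. Vegfa, the angiogenic growth factor that hypoxia also induces, instead fell, at 84.3, 68.8 and 74 CPM against 127 and 145 CPM (-0.84 ± 0.21, adjusted p = 0.0165). Hypoxia genes thus did not move together. Vegfa lost its call without gland 2 (-0.75, adjusted p = 0.156) and Adm without gland 1 (1.07, 0.143).

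Of 25 Wnt ligands, receptors and regulators, 9 were lower, 2 were higher and 14 did not pass (median -0.38). Ligands made up 5 of the 9. Wnt11 was at 4.65, 11.2 and 7.22 CPM in tumors and at 103 and 89.3 CPM in glands (-3.64 ± 0.52, adjusted p = 8.75e-05). Wnt10a was at 3.03, 2.48 and 2.67 CPM against 33 and 12.1 CPM (-3.05 ± 0.49, adjusted p = 0.000259), and Wnt5a at 24.1, 21.3 and 11 CPM against 67.2 and 98.7 CPM (-2.14 ± 0.36, adjusted p = 0.000468). Together with Wnt4 these passed without any 1 library, while Wnt6, at or under 1.35 CPM, did not. Wnt5b went the opposite way, at 154, 134 and 109 CPM against 71 and 64.8 CPM (0.96 ± 0.19, adjusted p = 0.00238). Of the secreted antagonists, Dkk2 was at 2.52, 0.685 and 0.712 CPM against 85.3 and 123 CPM (-6.30 ± 0.77, adjusted p = 1.73e-05), and Dkk3 fell by 2.62 ± 0.76. Sfrp1, another antagonist, rose, at 85.8, 44.4 and 45.6 CPM against 12.7 and 10.5 CPM (2.33 ± 0.47, adjusted p = 0.00295). The target gene Axin2 fell by 1.25 ± 0.34 and the amplifier Rspo1 by 2.51 ± 0.59. None of the frizzled and Lrp receptors passed. Without gland 1, 5 genes of this list were lower, since Wnt6, Rspo1, Dkk3 and Axin2 were lost (adjusted p between 0.181 and 0.593). Wnt6 and Axin2 were also lost without tumor 2 or tumor 3, and Dkk3 without tumor 3.

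Notch genes were divided, with Notch4 and Hey1 higher and Jag1, Nrarp and Lfng lower of 15. Jag1, a ligand, was at 203, 357 and 213 CPM against 952 and 591 CPM (-1.58 ± 0.37, adjusted p = 0.00961). Notch4, a receptor, was at 17.5, 41 and 19.3 CPM in tumors, with both glands lower (1.46 ± 0.42, adjusted p = 0.0395). No call on this list passed without gland 1, where Jag1 had -1.20 (adjusted p = 0.198) and Notch4 1.34 (0.277). Notch4 was also lost without tumor 2 or gland 2 (adjusted p = 0.202 and 0.156), Lfng without tumor 2, tumor 3 or gland 2, and Nrarp without tumor 1, tumor 3 or gland 2. In the EGF family Nrg2 rose by 2.60 ± 0.72, from 0.385 and 0.127 CPM, while Nrg1 fell by 1.83 ± 0.48. Both were lost without tumor 1 (adjusted p = 0.203 and 0.122), Nrg2 also without gland 2 and Nrg1 without gland 1. The 4 receptors had log2 fold changes between -0.21 and 0.63 with none passing. Of 17 genes that ERK signaling is known to induce, Dusp4, a phosphatase of ERK, was the one DEG. It fell, at 75.2, 90.3 and 125 CPM against 185 and 234 CPM (-1.11 ± 0.22, adjusted p = 0.00268), and passed without any 1 library. Myc (-0.02) and Ccnd1 (-0.60) did not pass. Without tumor 3, 4 of the ERK list and 4 of the EGF family were lower.

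Of 20 interferon-induced genes 6 were lower, none was higher and 14 did not pass, with log2 fold changes below 0 in all 20 (median -1.71). Cxcl10, a chemokine that attracts T cells, was at 0.307, 0.425 and 0.509 CPM against 10.7 and 1.83 CPM (-3.92 ± 0.62, adjusted p = 0.000257). Ifit3 was at 0.653, 0.189 and 0.509 CPM against 9.35 and 1.73 CPM (-3.61 ± 0.79, adjusted p = 0.00597). Rsad2, or viperin, was at 2.04, 2.1 and 7.79 CPM against 61.2 and 6.78 CPM (-3.10 ± 0.82, adjusted p = 0.0253). Gland 1 was several times above gland 2 in all of these, and for Rsad2 tumor 3 exceeded gland 2. The transcription factor Stat2 fell by 1.27 ± 0.41, and had -0.70 without gland 1 (adjusted p = 0.612). Mx1 was at 12 CPM in gland 1 and at 0.533 CPM in gland 2, within the range of the tumors (0.283 to 0.979 CPM), and its log2 fold change of -3.34 turned to 0.22 without gland 1. Summed over the list, gland 1 held 1880 CPM, gland 2 held 720 and the tumors 362, 367 and 779. Cxcl10 was the one call left without gland 1, and 3 were left without tumor 1 or without tumor 2. There were 2 when only these 5 libraries were fitted and 12 with no filter on low counts.

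Other immune signals were few. Of 17 chemokines Cxcl9, Cxcl10, Cxcl14 and Cxcl15 fell and Ccl20 rose. Ccl20, which attracts Ccr6-bearing lymphocytes and dendritic cells, was at 3.03, 5.69 and 4.99 CPM against 0.408 and 0.102 CPM (3.99 ± 0.57, adjusted p = 8.22e-05). Cxcl15, a chemokine of epithelia, was at 0.0576, 0.0473 and 0.285 CPM against 3.25 and 7.59 CPM (-5.34 ± 1.13, adjusted p = 0.0043). Both passed without any 1 library, and without gland 1 the lower chemokines numbered 2. Cxcl14 passed only without tumor 1 among these fits. Among 15 genes of antigen presentation only Ciita rose (2.08 ± 0.63), at 1.17 CPM or less, and none fell. Ciita was lost without tumor 1 or either gland (adjusted p between 0.123 and 0.422). Without tumor 3, 4 of these 15 were lower.

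Proliferation did not separate the groups. None of 20 G2/M genes and none of 20 S phase genes was a DEG, with medians of 0.40 and 0. The G2/M genes summed to 643, 1540 and 2110 CPM in tumors and to 1940 and 219 CPM in glands, so that the 2 glands spanned most of the range of the tumors. Mki67, the proliferation antigen, was at 71.2, 229 and 237 CPM against 244 and 27.6 CPM (0.40 ± 0.58, adjusted p = 0.816). Top2a and Ccnb1 had the same order of libraries. Against gland 2 alone, 18 of the 20 G2/M genes were higher (median 2.75), and against gland 1 alone none was called (median -0.45). Whether carcinoma cells at week 10 differed from glands in these genes therefore could not be told with these 2 glands.

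Of 15 genes of p53 and the CDK inhibitors, Cdkn1c, the imprinted inhibitor p57, rose, at 6.26, 3.31 and 3.46 CPM against 0.994 and 1.07 CPM (2.08 ± 0.40, adjusted p = 0.00184). Cdkn2b fell by 0.88 ± 0.27 but was lost without tumor 1 or either gland (adjusted p between 0.126 and 0.33), and Cdkn1a and Cdkn2a did not pass (-0.33 each). Of 21 apoptosis genes 3 rose, among them the inhibitor Bcl2 and the death receptor Fas. Bcl2 was at 52.9, 62.8 and 45.3 CPM against 25.6 and 20 CPM (1.24 ± 0.19, adjusted p = 0.000139), and Fas at 18.1, 12.9 and 13.2 CPM against 3.55 and 4.72 CPM (1.84 ± 0.31, adjusted p = 0.000445). Both passed without any 1 library. In the integrated stress response, by which cells react to amino acid shortage and unfolded protein, Atf3 fell (-1.69 ± 0.44, adjusted p = 0.0223) and the other 16 of 17 did not pass. Atf3 was lost without tumor 1 (adjusted p = 0.123) or gland 2 (-0.93, 0.442). Without tumor 3, in which this list was highest, 9 of the 17 were lower.

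Several of the genes with the largest changes belong to none of these groups. Among those that rose, Foxi1, a forkhead factor of proton-secreting cells, was at 19.9, 14.2 and 7.04 CPM against 0.077 and 0.203 CPM (6.81 ± 1.19, adjusted p = 0.000707). Atp6v1b1, a proton pump subunit of the same cells, was at 9.16 to 25 CPM against 0.362 and 0.584 CPM (5.08 ± 1.03, adjusted p = 0.00294). The glutamine transporter Slc38a3 and the noradrenaline transporter Slc6a2 rose by 5.47 ± 0.71 and 5.40 ± 0.88. In all 4 genes tumor 1 was highest and tumor 3 lowest. Spp1, osteopontin, was at 6479, 2515 and 2947 CPM against 152 and 234 CPM (4.37 ± 0.82, adjusted p = 0.00141). Igfbp5, which binds insulin-like growth factors, was at 6914, 2837 and 2052 CPM against 146 and 400 CPM (3.85 ± 0.96, adjusted p = 0.016), and lost its call without gland 1 (3.30, adjusted p = 0.22). Ltbp2, a member of the latent TGF-beta-binding protein family, rose by 1.59 ± 0.28. The secreted or membrane proteins Scube1, Sparcl1, Col9a1 and the G protein subunit Gng11 rose by 4.47 to 5.31 on the log2 scale, and Sparcl1 was lost without gland 1 (4.08, adjusted p = 0.256).

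Among those that fell, Tph1, the enzyme that commits tryptophan to serotonin, was at 0.461, 0.283 and 0.895 CPM against 52.2 and 48.4 CPM (-6.51 ± 0.72, adjusted p = 5.85e-06). Abcc8, the sulfonylurea receptor of potassium channels, was at 0.096, 0.0945 and 0.0204 CPM against 4.11 and 18.2 CPM (-7.27 ± 0.91, adjusted p = 2.37e-05). Cldn6, a tight junction protein, was at 2.5, 1.3 and 3.01 CPM against 97.5 and 106 CPM (-5.48 ± 0.58, adjusted p = 2.69e-06), and the growth factor Ptn at 4.74, 0.638 and 2.79 CPM against 118 and 172 CPM (-5.72 ± 1.05, adjusted p = 0.00113). Tumors and glands were separated by a wide gap for each. The calmodulin-binding Pcp4, the protease Ctse, the peptide gene Uts2b, R3hdml and the cornified envelope protein Sprr1a fell by 5.07 to 6.01 on the log2 scale. Of the highly counted genes, Slc12a2, a sodium, potassium and chloride cotransporter, was at 304, 196 and 190 CPM against 1357 and 1564 CPM (-2.67 ± 0.46, adjusted p = 0.000586), and the cytolinker Plec at 563, 980 and 756 CPM against 2083 and 2313 CPM (-1.52 ± 0.22, adjusted p = 0.0001). The proteoglycan Sdc1 fell by 1.02 ± 0.23. The desmosomal and hemidesmosomal linkers Dsp and Dst fell by 0.75 ± 0.23 and 0.67 ± 0.22, and neither passed without tumor 3 (adjusted p = 0.246 and 0.238), gland 1 (0.365 and 0.476) or gland 2 (0.121 and 0.102), nor Dst without tumor 1 (0.215). Ctsd, a lysosomal protease, rose by 0.97 ± 0.26, and Rnf213, an interferon-induced ubiquitin ligase, fell by 1.39 ± 0.44, neither passing without tumor 1 (adjusted p = 0.219 and 0.269) or gland 1 (0.257 and 0.589), nor Rnf213 without tumor 2 (0.176).

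Pthlh, which encodes PTHrP, was itself lower in carcinoma, although its gene was intact in both groups. It was at 1.54, 1.47 and 2.65 CPM in tumors and at 7.13 and 3.88 CPM in glands, low in all 5 libraries and without overlap (-1.55 ± 0.41, adjusted p = 0.0246). The call was lost without tumor 1 (-1.42, adjusted p = 0.108) or gland 1 (-1.04, 0.378). Gm50337, a long noncoding gene that lies 11730 bases from Scd1, was at 0.442, 0.472 and 0.448 CPM in tumors and at 0.116 and 0.0762 CPM in glands (2.14 ± 0.53, adjusted p = 0.016). Gland 2 was at the level of 3 reads, and the call was lost without gland 1 (2.54, adjusted p = 0.118) or gland 2 (1.95, 0.136). Among other noncoding genes C530043A13Rik, Vmn2r-ps73 (a pseudogene), Gm20275 and Ttc39aos1 rose by 2.91 to 3.49 on the log2 scale, all but Gm20275 lost without gland 1 (adjusted p between 0.152 and 0.235). AW112010, a noncoding transcript known from activated immune cells, was at 1.13, 0.236 and 1.63 CPM in tumors and at 30.9 and 85.2 CPM in glands (-5.84 ± 0.82, adjusted p = 6.97e-05).

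The same contrast was made at weeks 6 and 8 in WT mice and at week 12 in PTHrP KO mice. In KO mice Pthrp is deleted by the same Cre, and each contrast had 3 tumors and 2 glands of its own. Genotype and age both differ between KO week 12 and WT week 10 and cannot be told apart. KO gland 2 of week 12 held 18.8% ribosomal and 6.54% mitochondrial RNA. Mitochondrial RNA was 6.88%, 7.95% and 1.86% in KO tumors 1, 2 and 3 and 4.59% in KO gland 1. What this does to the KO contrast was not tested. There were 2139 DEGs at week 6 (5.86% of the genes tested), 3358 at week 8 (9.19%) and 2233 in KO mice at week 12 (6.11%). Of the 2240 DEGs of week 10, 1160 were also DEGs at week 6 (51.8% of the week 10 genes and 54.2% of the week 6 genes) and 1643 at week 8 (73.3% and 48.9%). In KO mice 1175 were shared (52.5% and 52.6%). No shared gene had opposite directions. At all 3 WT ages 1076 genes (48.0%) were DEGs, while 513 (22.9%) were so at week 10 and at neither earlier age. Where the tumor-gland difference of week 10 was itself tested against that of week 6, of week 8 or of KO mice at week 12, 0 genes passed (0% in each) with edgeR, with 1555, 1463 and 1938 genes at an unadjusted p under 0.05. DESeq2 called 3, 0 and 42. The 513 genes are therefore not shown to be particular to week 10. Without gland 1 the difference from KO mice had 4 genes.

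**Figure D5:**
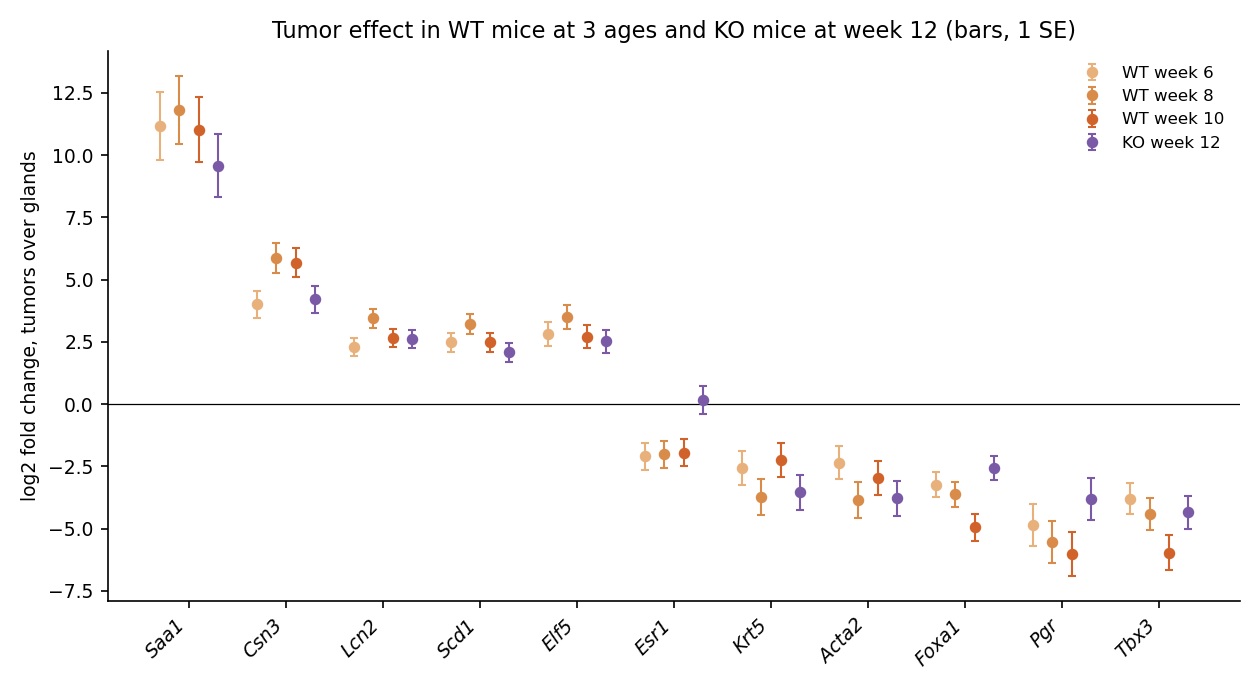
Log2 fold change of tumors against glands (y axis) with SE bars for 11 genes at WT weeks 6, 8 and 10 and in KO mice at week 12, 3 tumors and 2 glands in each. Saa1, Csn3, Lcn2, Scd1 and Elf5 lie above 0 and Foxa1, Pgr, Tbx3, Acta2 and Krt5 below 0 in all 4 contrasts, while Esr1 is near 0 in KO mice.

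Side by side, Scd1 had log2 fold changes of 2.48, 3.23 and 2.49 at WT weeks 6, 8 and 10 and of 2.08 in KO mice at week 12, and Elf5 had 2.81, 3.50, 2.71 and 2.52. Pgr had -4.86, -5.53, -6.03 and -3.82, and Foxa1 -3.24, -3.62, -4.94 and -2.57. For Esr1 they were -2.10, -2.01, -1.95 and 0.16, and the difference between WT week 10 and KO week 12 was -2.10 with an adjusted p of 0.831. The acute-phase list had 11 genes higher at week 6, 12 at week 8, where 1 was lower, and 12 in KO mice. The contractile list had 17, 19 and 17 lower. The hormone-sensing list had 6 genes lower at week 6 and 8 at week 8, and in KO mice 4 lower and 1 higher, with medians of -2.04, -2.88 and -1.09. Of the G2/M list, at week 6, 17 of 20 genes were higher (median 2.08), and at week 8 and in KO mice none was (0.66 and -0.27). The cholesterol list had 1 gene lower and 1 higher at week 6. It had 11 lower at week 8 and 13 in KO mice, with medians of -0.16, -0.73 and -0.77 in the 3 contrasts. The interferon list had a median of -0.65 at week 6, -0.90 at week 8 and 0.91 in KO mice. No member of these lists passed the test of a difference between contrasts.

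The 3 carcinomas were not uniform. The 5 genes that varied most among them, at a mean of at least 10 CPM, were Lars2, Gm15564, Mir6236, CT010467.1 and H19. Lars2, a mitochondrial leucyl-tRNA synthetase, was at 35.7, 2911 and 9.18 CPM in tumors and at 6.73 and 32.1 CPM in glands. CT010467.1 (4312 CPM in tumor 2) is annotated as ribosomal RNA and held nearly all of that library's ribosomal reads. Gm15564 (479 CPM) and Mir6236 (81.5 CPM) were also highest in tumor 2, and the part of ribosomal RNA in the values of Lars2 and these 2 genes was not tested. H19, an imprinted noncoding RNA known from fetal tissue, was at 502, 23.3 and 12.8 CPM in tumors and at 258 and 158 CPM in glands, so that tumor 1 lay above and the others below both glands. Tumor 1 also held the most polyomavirus reads, the most milk and serum amyloid RNA and the most Krt5 (432 CPM), and it had the lowest G2/M sum. Tumor 3 had the highest G2/M and interferon sums and the lowest Acta2 and Krt5 of the 3.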

How the data were processed

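GFP+ mammary cells were isolated from 1 mouse per library. Per the labels and the study's methods, the authors depleted ribosomal RNA, made stranded total RNA libraries, aligned reads with HISAT (Gencode, then GRCm38), removed duplicates (Picard 1.128) and ran HTSeq for the gene counts. The authors deposited the raw count of each gene in each of 33 libraries, which is used here. A deposited table of normalized values was not used. Whether counting used strand is not given in the sources used here. Of the rows, 55487 were genes, and the other 111 (reporters, transgenes and spike-ins, 0.0778% of the reads) stayed out of library sizes and tests.

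Counts were fitted in edgeR 4.0.16 (R 4.3.3; TMM, estimateDisp, glmQLFit and glmQLFTest) with 1 coefficient for each of 14 groups and all 33 libraries. Genes entered with a sum of 10 reads or more. DESeq2 (1.42.0), the tool of the study, served as an alternative. DEGs changed by more than 1.5-fold at an adjusted p under 0.1 (Benjamini-Hochberg, all genes tested). All adjusted p-values are from this quasi-likelihood fit unless another tool is named. CPM are counts over TMM-scaled library sizes, and the SE was obtained by dividing the log2 fold change by the root of the F statistic. Scripts were tested on simulated counts. A count of 0 allows up to 3 reads, which covers counting error only. With 2 glands and 3 tumors, p-values rest on the spread shared over all groups. The chi-square per degree of freedom between counts of replicates was 120.4 or more, so that none was a duplicate.

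The members are the samples given by the labels. The gene lists and named genes were chosen with earlier results of these data known. The rule named the 15 protein-coding DEGs with the largest change in each direction at a mean of 10 CPM or more and no overlap, 5 other DEGs per direction by the same rule at 2 CPM, the 10 DEGs per direction with the highest level, Pthlh, Scd1, Gm50337 and the polyomavirus row. It also took the members of each list that were called, with up to 3 others that define it, and the 5 genes that varied most among tumors. Neighboring genes, and members of a list beyond these, were named after their values were seen. Coordinates are of GRCm38 (99.7% of genes tested matched) and promoters are from RefSeq GRCm38.p6. Alternatives were DESeq2, other scalings and filters, only the groups compared, the unreplicated WT tumor of week 12 left out, replicate and mouse number blocks, thinned counts, no rRNA or mitochondrial genes, a fold over 2, and each library left out. Some genes of the rule and lists are not reported here.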

Additional observations from a re-analysis of the deposited data

Results flagged for a closer look

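The row of the polyomavirus genome, which is not part of the gene comparison, held reads in all 3 tumors and none in either gland. Tumor 1 had 2500 reads, tumor 2 had 628 and tumor 3 had 528, which correspond to 48.0, 14.8 and 10.7 CPM. The glands had 0 reads, which allows up to 0.0231 CPM in gland 1 and 0.0762 CPM in gland 2. It was singled out as a signal outside the genes tested that lay above the level of the control libraries. The MMTV-PyMT transgene is carried by the tumor mice alone, so the row matches the labels of all 5 libraries. Groups of 3 and 2 libraries are too small for a check of single outlying libraries.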

How the results depend on the processing

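The count of 2240 DEGs lay between 2119 and 2678 under DESeq2 (2563), other scalings (2254 and 2274), filters (2678 with none, 2673 with filterByExpr), thinned counts (2119) and the fits without the WT tumor of week 12 (2250), without rRNA and mitochondrial genes (2200) and with the mouse number block (2220). With only the groups compared it was 995, with 359 higher and 636 lower, and 933 at a fold over 2 in place of 1754. Leaving out 1 library gave 1215 (without gland 1) to 2338 (without tumor 2), with 471 to 1079 higher, 723 to 1259 lower and 1031 to 1706 at a fold over 2. Of the 2240 genes 1009 were called without gland 1 and 1316 without gland 2. The share of calls that were higher, 40.2%, became 31.5% without tumor 1 and 31.6% without gland 2, where the median of all genes was 0.13. Without gland 2, log2 fold changes are therefore relative to that shift.

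The replicate numbers of tumors and glands did not mark pairs from the same mouse, since the labels give each library its own mouse number. Same-numbered libraries deviated from their group means with r = -0.284 and -0.135 across genes. With 2 glands these deviations mirror each other, so the r values cannot decide on pairing. A replicate block gave 2035 DEGs, 1980 of them shared. The differences from other contrasts, 0 genes each, gave 3 (week 6) and 42 (KO mice) with DESeq2. With no filter they gave 19, 26 (week 8) and 98, with only the groups compared 2 at week 8, and without 1 library between 0 and 1, 0 and 0, and 0 and 4. Of 178 called genes on the lists or named by the rule, 77 passed in all 16 alternatives run, 60 were lost with only the groups compared and 87 without gland 1, where Mx1 also turned from -3.34 to 0.22 (range without 1 library, -4.26 to 0.22). None was lost under DESeq2. The cause was not tested. Depth limits genes near 3 reads, such as Gm50337 in gland 2.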

Other observations

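On chromosome 7 (GRCm38) the gene that fell 91.0-fold, Tph1 (46644641 to 46672537), lies 39460 bases from Saa3 and 79252 bases from Saa2 (46751790 to 46754313), which were among the genes that rose most. Saa1, between Saa3 and Saa2, was another of these. Other genes around and between them did not pass. Saal1, at 18.3, 17.3 and 21.0 CPM in tumors and 17.0 and 15.6 CPM in glands, had a log2 fold change of 0.21 ± 0.12 (edgeR, adjusted p = 0.435), Hps5 one of 0.22 ± 0.13 (adjusted p = 0.429) and Gtf2h1 one of 0.21 ± 0.14 (adjusted p = 0.522). Tph1 was also below the glands in WT tumors of week 6, at 1.69 to 5.58 CPM against 25.6 and 36 CPM, and of week 8, at 1.34 to 2.17 CPM against 24.5 and 32.4 CPM. In WT glands of week 12 it was at 3.96 and 4.48 CPM, well below the glands of the other WT ages.

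Reads on T cell receptor delta genes were seen in glands and hardly in tumors. Trdc, the constant segment, was at 1.62 and 4.70 CPM in the glands of week 10 and at 0.0576, 0.0236 and 0.0407 CPM in the tumors, which is 3 reads or fewer in each. Trdv4, a variable segment 67335 bases away on chromosome 14, was at 2.22 and 4.29 CPM in glands and at 0.0384, 0.0473 and 0.0611 CPM in tumors. Cd3e, a subunit of every T cell receptor, was at 0.0231 and 0.102 CPM in the same glands. Trdc in WT glands of weeks 6 and 8 lay between 1.62 and 3.57 CPM. These genes were named after their values were seen, and the cells of origin were not tested.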
